A study of Mus musculus with 6 samples.

Results

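The 10 genes described here write, remove or read 1-methyladenosine (m1A), a methylation of the adenine base that is best known from tRNA. They are Trmt6, Trmt61a, Trmt61b, Trmt10c, Alkbh1, Alkbh3, Ythdf1, Ythdf2, Ythdf3 and Ythdc1, chosen by function and matched by gene symbol to 10 of the 55335 rows of the deposited count table. All 10 passed the filter on low counts, and 14107 genes were tested in all. Transcripts were counted by RNA-seq of intestinal tissue from mice whose colitis was induced with DSS (dextran sulfate sodium, which damages the epithelium of the gut). There were 3 libraries labelled Trmt6-/- (KO72, KO73 and KO75) and 3 wild-type (WT) libraries (WT185, WT186 and WT187), 1 per mouse per the design text. All 6 mice received DSS, and no untreated mouse was analysed here. The labels used here give no strain, age, sex, DSS dose, intestinal segment, deleted exon or Cre driver for these mice.

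In the cytosol the TRMT6-TRMT61A enzyme methylates tRNAs, including the initiator methionine tRNA; TRMT61A binds the methyl donor and TRMT6 is a non-catalytic subunit that helps to hold the tRNA. TRMT61B and TRMT10C place m1A on mitochondrial RNA. ALKBH1 and ALKBH3 are iron-dependent dioxygenases that remove the methyl group, and the YTH proteins, better known as readers of N6-methyladenosine (m6A), have also been found to bind m1A. The series is concerned with TRMT6 and translation, and the comparison gives the transcript levels of this machinery in both labelled groups. These libraries measure transcripts, not m1A, protein or translation.

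The libraries held 15213972 to 16972758 counts. Markers of epithelium were abundant in every library, with 8 genes summing to 11940 to 14837 CPM (library-scaled counts) in the libraries labelled Trmt6-/- and 11241 to 12587 CPM in WT. The 10 stromal and muscle markers summed to at most 13.5 and 10.2 CPM, and 1 to 3 of them were at 0 in each library. The 12 leukocyte markers summed to 465 to 1525 CPM in the libraries labelled Trmt6-/- and 1035 to 3023 CPM in WT, and 1 of them was at 0 in WT187. Much of each sum was a single gene, Cd74. It was at 353 CPM in KO72, 750 in KO73 and 666 in KO75, and at 725 CPM in WT185, 1680 in WT186 and 1896 in WT187. Markers of position along the small intestine varied widely within each group, and the ranges of both sums overlapped between the groups. The 4 ileal markers summed to 832 CPM in KO72, 641 in KO73 and 179 in KO75, and to 813 CPM in WT185, 59.8 in WT186 and 35.6 in WT187. The 4 proximal markers summed to 501 CPM in KO72, 2169.9 in KO73 and 3728 in KO75, and to 1427 CPM in WT185, 6102 in WT186 and 3575 in WT187. 1 ileal marker was at 0 in KO75 and in WT186, and no proximal marker was at 0. For 1 of the 4 ileal and 1 of the 4 proximal markers the groups did not overlap, against 18.7% of all genes tested. The proximal gene Gata4 was at 82.2 to 132 CPM in the libraries labelled Trmt6-/- and 156 to 271 CPM in WT (edgeR adjusted p = 0.281). The ileal gene Slc51b was at 75.6 to 99.7 CPM in the libraries labelled Trmt6-/- and 31.3 to 54.0 CPM in WT (edgeR adjusted p = 0.191). DESeq2 called 1 of the 4 ileal markers, and 627 genes over the whole table. Most of the proximal sum of KO75 was Fabp1, at 2931 CPM, while its Lct was at 664 CPM, against 2592 CPM in WT187. In bulk tissue, fewer cells of a type and less RNA per cell cannot be told apart.

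None of the 10 genes differed between genotypes past an adjusted p of 0.05 (edgeR quasi-likelihood F test, Benjamini-Hochberg over all genes tested), against 6 of 14107 genes (0.0425%). At an unadjusted p below 0.05 there was 1 of 10, Trmt6, against 12.1% of all genes. DESeq2 put 0 of the 10 past the adjusted threshold, against 627 genes over the whole table. For limma-voom the count was also 0 of the 10, but it put 0 genes past the threshold over the whole table, so its count adds nothing. The median log2 fold change of the 10 was 0.10 (labelled Trmt6-/- over WT), with 7 above 0 and 3 below, and that of all genes was -0.03. The design has little reach for moderate changes: on simulated counts for this comparison over 13771 genes, it recovered 3% of 100 genes changed 2-fold and 72% of 100 changed 4-fold.

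**Figure D1:**
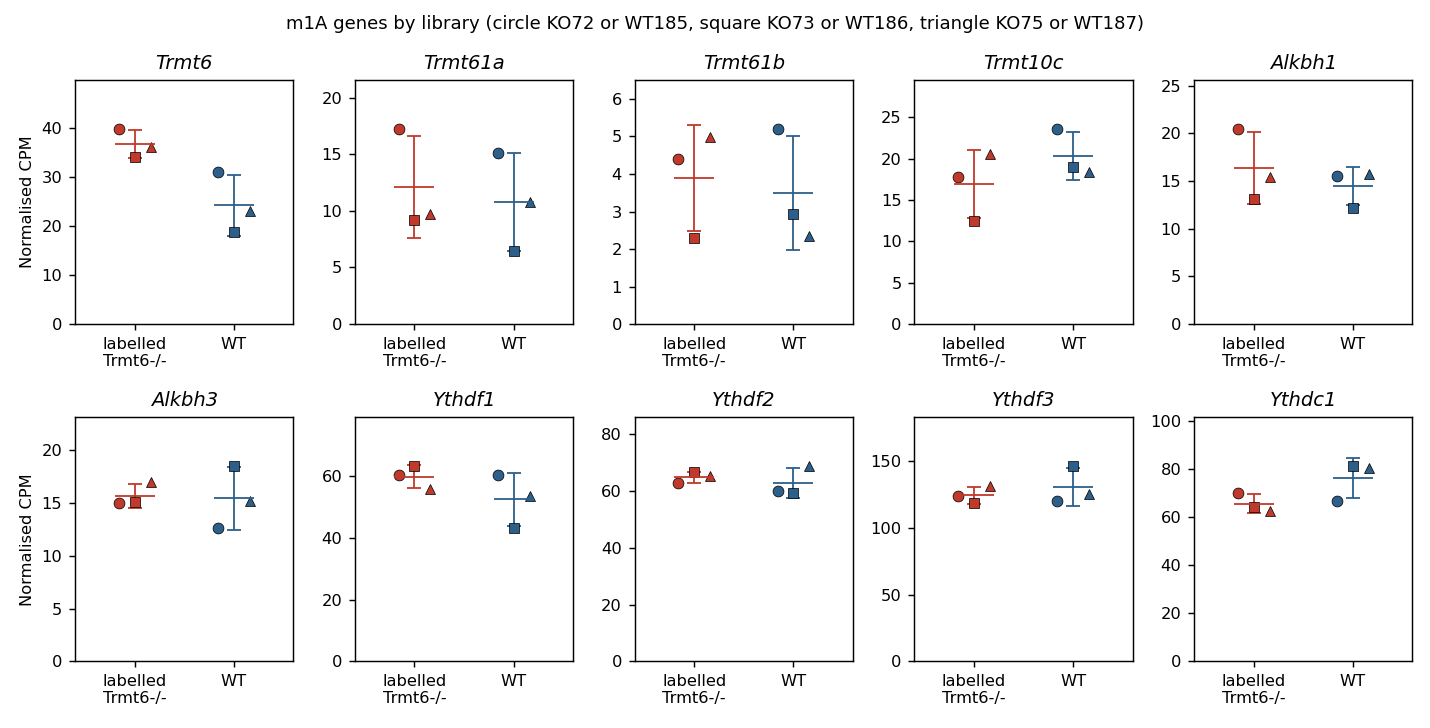
Normalised CPM of each m1A gene in every library, with libraries labelled Trmt6-/- on the left and WT on the right; horizontal bars are means and whiskers SD over 3 libraries, and each panel has its own axis from 0. Trmt6 has no overlap between the groups, its lowest value in the libraries labelled Trmt6-/- being 34.2 CPM and its highest in WT 30.9 CPM, and the other 9 genes overlap.

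Trmt6 is the gene that the labels give as lost, and its transcript was present at a higher mean in the libraries so labelled. The gene (ENSMUSG00000037376.14, minus strand of GRCm38 chromosome 2, 132804207 to 132816055) was read 706 times in KO72, 489 in KO73 and 508 in KO75, and 593 times in WT185, 274 in WT186 and 385 in WT187. On the normalised scale it stood at 39.8 CPM in KO72, 34.2 in KO73 and 36.2 in KO75, against 30.9 CPM in WT185, 18.7 in WT186 and 23.1 in WT187. Every library labelled Trmt6-/- was above every WT library on this scale. The groups were also apart with RLE scaling (34.7 to 39.3 CPM in libraries labelled Trmt6-/- and 18.8 to 31.1 CPM in WT). With upper-quartile scaling they were apart as well (34.0 to 41.1 and 17.9 to 31.8 CPM). With library totals as the only scaling they overlapped (32.1 to 42.8 CPM in libraries labelled Trmt6-/- and 17.0 to 34.9 CPM in WT), and they overlapped per length as well (18.0 to 26.1 and 10.7 to 21.0 TPM, the count per base of exon scaled to a common total). Groups without overlap were found for 1 of the 10 genes, against 18.7% of all genes (9.7% with the libraries labelled Trmt6-/- higher and 9.03% with them lower).

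The Trmt6 log2 fold change was 0.60 ± 0.21 (SE; unadjusted p = 0.0256, adjusted p = 0.335 by edgeR), a ratio of 1.51 with a 95% interval of 1.07 to 2.14 that is not adjusted for the number of genes. A lower transcript level in the libraries labelled Trmt6-/- lies outside that interval in the reported fit, but not in every alternative fit. The unadjusted p was also below 0.05 with RLE or upper-quartile scaling and with no or a stricter low-count filter (edgeR, 0.0202 to 0.0350). It was 0.0179 by DESeq2 and 0.0221 by limma-voom, and by edgeR 0.0464 without KO73 and 0.0494 without KO75. By edgeR the unadjusted p was 0.121 with library totals and 0.0539 with an index of the leukocyte markers as a covariate. It was 0.0849 without KO72, 0.0553 without WT186 and 0.0903 without WT187. Where p is above 0.05 the 95% interval also holds a lower level. The estimate was above 0 in all 15 alternative fits, from 0.31 to 0.84. The lowest came with an index of the ileal and proximal markers as a covariate (unadjusted p = 0.157) and the highest without WT185 (unadjusted p = 0.00334, adjusted p = 0.161). The index itself was 0.61 in KO72, -1.005 in KO73 and -3.63 in KO75, and -1.71 in WT185, -7.37 in WT186 and -6.05 in WT187, higher on average in the libraries labelled Trmt6-/- with overlap between the groups. Counts per gene do not show which exons were read, so a transcript that is made but lacks a deleted exon was not tested. None of the 5384 exon bases of Trmt6 is shared with another gene in the table, and none of its 50-base stretches occurs in the annotated transcripts of another gene. Since the Trmt6 transcript level was not lower in the libraries so labelled, the first group is named throughout by its label, on which every direction depends.

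Trmt6 lies between a pair of expressed genes. Mcm8, which encodes a helicase of homologous recombination, is read from the opposite strand, and its annotated start is 86 bases from the Trmt6 start. It stood at 9.82 CPM in KO72, 4.12 in KO73 and 2.56 in KO75, and at 9.43 CPM in WT185, 3.14 in WT186 and 7.31 in WT187, with overlap between the groups (log2 fold change -0.27 ± 0.60, edgeR adjusted p = 0.914). On the other side, 9128 bases away, is Chgb, which encodes chromogranin B of neuroendocrine secretory granules. Chgb stood at 62.6 CPM in KO72, 62.9 in KO73 and 74.7 in KO75, and at 150.5 CPM in WT185, 206 in WT186 and 127 in WT187 (-1.27 ± 0.21, adjusted p = 0.128 by edgeR). Its groups did not overlap and the difference did not pass, so neither neighbour had the higher mean seen for Trmt6.

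Over 10354 other tested genes with a mean of at least 5 CPM, the profiles nearest to that of Trmt6 were Sil1, Phf7 and Nupl2. Their centred log2 CPM differed from that of Trmt6 by a root mean square of 0.053, 0.073 and 0.077 over the 6 libraries. Sil1 encodes a nucleotide exchange factor of the endoplasmic reticulum chaperone BiP, Phf7 a PHD finger protein and Nupl2 a nuclear pore protein. Sil1, the nearest, stood at 27.1 CPM in KO72, 21.5 in KO73 and 25.5 in KO75, and at 21.4 CPM in WT185, 12.3 in WT186 and 15.2 in WT187. Likeness over 6 libraries is a description, chosen as the closest of many.

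Trmt61a, which encodes the catalytic partner of TRMT6, had the same highest and lowest library as Trmt6 in each group, but its groups overlapped. The gene (ENSMUSG00000060950.12, plus strand of GRCm38 chromosome 12, 111678105 to 111683902) stood at 17.3 CPM in KO72, 9.22 in KO73 and 9.75 in KO75, against 15.1 CPM in WT185, 6.41 in WT186 and 10.8 in WT187. KO72 and WT185, the library of each group with the largest ileal marker sum, were the highest of their groups. KO73 and WT186 were the lowest, although the smallest ileal sums were those of KO75 and WT187. The log2 fold change was 0.17 ± 0.39 (edgeR adjusted p = 0.920), and the 95% interval of -0.77 to 1.10 holds changes of 2-fold upward. The direction was not stable. With the index of ileal and proximal markers as covariate it was -0.48, with a leukocyte index -0.06, -0.19 without KO72 and -0.10 without WT186.

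The ratio of Trmt6 to Trmt61a within a library needs no scaling between libraries. Per base of all annotated exons it was 1.04 in KO72, 1.67 in KO73 and 1.68 in KO75, and 0.924 in WT185, 1.32 in WT186 and 0.967 in WT187. The geometric means were 1.43 in the libraries labelled Trmt6-/- and 1.06 in WT, a difference in mean log2 ratio of 0.44 (SD 0.39 and 0.28, n = 3 each; two-sided exact permutation test, p = 0.2, where 0.1 is the smallest value possible). KO72 lay within the WT range, so the subunit ratio did not separate the groups.

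In WT, Trmt61a and Ythdf1 followed the library order of Trmt6, highest in WT185 and lowest in WT186. In the libraries labelled Trmt6-/- Trmt61a did so as well, but Ythdf1 was highest in KO73 and lowest in KO75. No upstream window was available for Trmt6 itself. The sequences upstream of Trmt61a and Ythdf1 are shown because of their order in WT. They are the 250 bases before the RefSeq start (GRCm38.p6), at chr12:111677855-111678104 on the plus strand for Trmt61a and at chr2:180920937-180921186 on the minus strand for Ythdf1, 5′ to 3′. Capitals mark matches to any of 4 motifs searched on both strands, which are TGACGTCA (cAMP response element), TGATGNAA (C/EBP-ATF response element), CCAAT (NF-Y box) and GGGCGG (GC box).
Trmt61a: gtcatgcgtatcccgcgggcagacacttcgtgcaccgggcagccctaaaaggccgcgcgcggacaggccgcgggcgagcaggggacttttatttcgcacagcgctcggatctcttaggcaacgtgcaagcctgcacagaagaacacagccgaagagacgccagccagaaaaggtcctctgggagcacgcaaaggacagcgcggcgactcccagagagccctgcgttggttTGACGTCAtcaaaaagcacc
Ythdf1: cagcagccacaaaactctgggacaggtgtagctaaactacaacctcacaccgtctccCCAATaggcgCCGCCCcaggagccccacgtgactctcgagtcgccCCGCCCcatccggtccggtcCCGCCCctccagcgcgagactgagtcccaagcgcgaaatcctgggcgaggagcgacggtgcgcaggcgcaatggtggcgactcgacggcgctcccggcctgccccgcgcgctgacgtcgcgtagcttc
The Trmt61a window holds 1 match, a complete TGACGTCA starting 20 bases before the start site, a motif present in 1.55% of 32851 promoter windows of the same length. The Ythdf1 window holds 1 CCAAT match (33.8% of windows) and 3 GGGCGG matches (32.7% of windows), and TGATGNAA matched in neither (3.45% of windows). No motif was shared by the 2 windows. They hold 24 and 30 CpG dinucleotides, against a median of 6 over all windows and 15 to 30 over the 9 windows available for the m1A genes. A match is a description of these letters and not evidence of a bound factor.

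Trmt61b, the mitochondrial m1A methyltransferase gene (ENSMUSG00000085492.7, chromosome 17, 71557027 to 71598755), was the least abundant of the 10. It was read 78 times in KO72, 33 in KO73 and 70 in KO75, and 100 times in WT185, 43 in WT186 and 39 in WT187. The normalised values were 4.40 CPM in KO72, 2.30 in KO73 and 4.98 in KO75, against 5.21 CPM in WT185, 2.93 in WT186 and 2.34 in WT187, so both groups spanned about the same range. Its log2 fold change of 0.15 ± 0.45 (edgeR adjusted p = 0.936) had the widest interval of the 10, from -0.91 to 1.22. Of its exon bases 13.9% are shared with the opposite gene Spdya, and the header of the table names no strand option, so reads there were left out of both genes or cannot be told apart.

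Trmt10c encodes the methyltransferase that, with HSD17B10, acts on mitochondrial tRNA and forms part of mitochondrial RNase P. The gene (ENSMUSG00000044763.8, chromosome 16, 56032609 to 56037819) stood at 17.8 CPM in KO72, 12.4 in KO73 and 20.6 in KO75, against 23.7 CPM in WT185, 19.0 in WT186 and 18.4 in WT187. KO72 and KO73 were below every WT library and KO75 was inside the WT range. The log2 fold change was -0.26 ± 0.24 (edgeR adjusted p = 0.741; 95% interval -0.82 to 0.30), and it was -0.08 without KO73, -0.12 without WT185 and -0.43 without KO75. Its partner gene Hsd17b10 was measured at 31.8 ± 3.60 CPM in the libraries labelled Trmt6-/- and 39.4 ± 8.32 CPM in WT (SD, n = 3 each; adjusted p = 0.607 by edgeR).

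The demethylase genes did not pass either. Alkbh1 (ENSMUSG00000079036.10, chromosome 12, 87425840 to 87444017), whose product acts on tRNA in the cytosol and mitochondria, stood at 20.5 CPM in KO72, 13.1 in KO73 and 15.4 in KO75, against 15.5 CPM in WT185, 12.1 in WT186 and 15.7 in WT187. KO72 alone lay above the WT range, and without it the log2 fold change of 0.18 ± 0.23 (edgeR adjusted p = 0.832) became -0.01. Alkbh3 (ENSMUSG00000040174.14, chromosome 2, 93980550 to 94010807), whose product demethylates tRNA and alkylated DNA, stood at 15.0 CPM in KO72, 15.1 in KO73 and 16.9 in KO75, and at 12.6 CPM in WT185, 18.5 in WT186 and 15.2 in WT187. All 3 libraries labelled Trmt6-/- were inside the WT range. Its log2 fold change was 0.02 ± 0.21 (edgeR adjusted p = 0.980), with an interval of -0.47 to 0.51, or 0.723 to 1.43 as a ratio. Of its exon bases 8.14% are shared with Gm27027 or Alkbh3os1.

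None of the 4 YTH genes passed, and the 3 YTHDF genes were the most abundant of the 10 per length. Ythdf1 (ENSMUSG00000038848.14, chromosome 2, 180904377 to 180920949), described as promoting translation of m6A-bearing transcripts, stood at 60.4 CPM in KO72, 63.3 in KO73 and 55.8 in KO75, against 60.4 CPM in WT185, 43.4 in WT186 and 53.8 in WT187. WT186 was the low library, and the other 5 lay between 53.8 and 63.3 CPM. Ythdf2 (ENSMUSG00000040025.17, chromosome 4, 132184912 to 132212303), whose product recruits the CCR4-NOT deadenylase to transcripts, stood at 62.7 CPM in KO72, 66.5 in KO73 and 65.3 in KO75, and at 59.9 CPM in WT185, 59.3 in WT186 and 68.7 in WT187. All 3 libraries labelled Trmt6-/- lay inside the WT range. Ythdf3 (ENSMUSG00000047213.14, chromosome 3, 16183212 to 16217037), a paralogue that acts with both, stood at 124 CPM in KO72, 119 in KO73 and 131 in KO75, and at 120 CPM in WT185, 147 in WT186 and 126 in WT187, where WT186 was the high library.

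The log2 fold changes were 0.19 ± 0.16 for Ythdf1, 0.05 ± 0.13 for Ythdf2 and -0.07 ± 0.14 for Ythdf3 (edgeR adjusted p = 0.724, 0.924 and 0.901). Their 95% intervals in ratio were 0.876 to 1.48, 0.842 to 1.27 and 0.753 to 1.20, which leave out a 2-fold change in either direction in the reported fit. With 1 library left out, Ythdf1 was at 0.078 without WT186 and 0.32 without WT185. Ythdf2 was at 0.023 without WT186, 0.032 without KO73, 0.081 without KO72 and 0.11 without WT187, and Ythdf3 at -0.038 without KO73, 0.029 without WT186, -0.11 without WT185 and -0.11 without WT187. Ythdc1 (ENSMUSG00000035851.14, chromosome 5, 86804221 to 86836659), the nuclear YTH gene, stood at 70.1 CPM in KO72, 64.5 in KO73 and 62.6 in KO75, against 67.1 CPM in WT185, 81.5 in WT186 and 80.8 in WT187. KO72 alone of its group was above the lowest WT library, WT185. Its log2 fold change was -0.22 ± 0.14 (edgeR adjusted p = 0.608; ratio 0.686 to 1.08). After Trmt6 it had the smallest unadjusted p of the 10, at 0.158. Of the Ythdc1 exon bases 4.62% are shared with Gm43055, and 7.49% of the 50-base stretches of Ythdf2 also occur in other annotated genes, mostly Gm6823, where reads cannot be assigned.

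**Figure D2:**
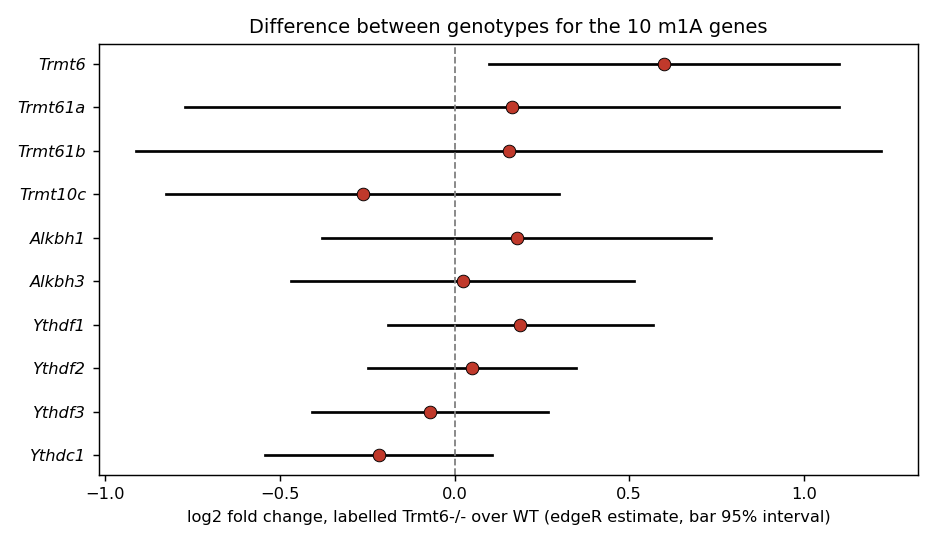
Log2 fold change of each m1A gene, libraries labelled Trmt6-/- over WT, with the edgeR estimate as a point and its unadjusted 95% interval as a bar. The Trmt6 interval, 0.10 to 1.10, lies above 0 and the other 9 cross it, the widest being Trmt61b and the narrowest Ythdf2.

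Because a longer transcript gives more reads, levels of different genes were compared per length, in TPM. The length was that of all annotated exons of a gene together, not of the transcripts present, and the order depends on it. Ythdc1, with 13651 exon bases, had a mean of 65.7 CPM in the libraries labelled Trmt6-/- and 76.4 CPM in WT. Those means were above the ones of Ythdf1 (59.9 and 52.5 CPM) and Ythdf2 (64.8 and 62.6 CPM), which exceeded it per length. The order of the mean over the 6 libraries was Ythdf3 (77.0 TPM), Ythdf1 (55.0), Ythdf2 (45.1), Trmt10c (20.3), Trmt6 (18.3), Ythdc1 (16.9), Alkbh3 (15.8), Trmt61a (15.6), Alkbh1 (7.66) and Trmt61b (4.16 TPM). Ythdf3 exceeded Ythdf1, and Ythdf1 exceeded Ythdf2, within each of the 6 libraries, although their ranges over libraries overlapped. Between Ythdf2 and Trmt10c there was a gap with no overlap, and the ratio of means was 2.22. The 5 genes from Trmt10c to Trmt61a could not be ordered, since each neighbouring pair changed places in 2 of 6 libraries. Alkbh1 was below Trmt61a, and Trmt61b below Alkbh1, in all 6. Among all genes tested, Ythdf3 stood at the 84.6th percentile of TPM, Trmt6 at the 53.1st and Trmt61b at the 23.6th. On this scale Ythdf3 was at 62.9 to 81.2 TPM in the libraries labelled Trmt6-/- and 81.9 to 84.4 TPM in WT, without overlap, as were 19.9% of all genes on this scale, where the median log2 ratio of all genes was itself -0.20.

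**Figure D3:**
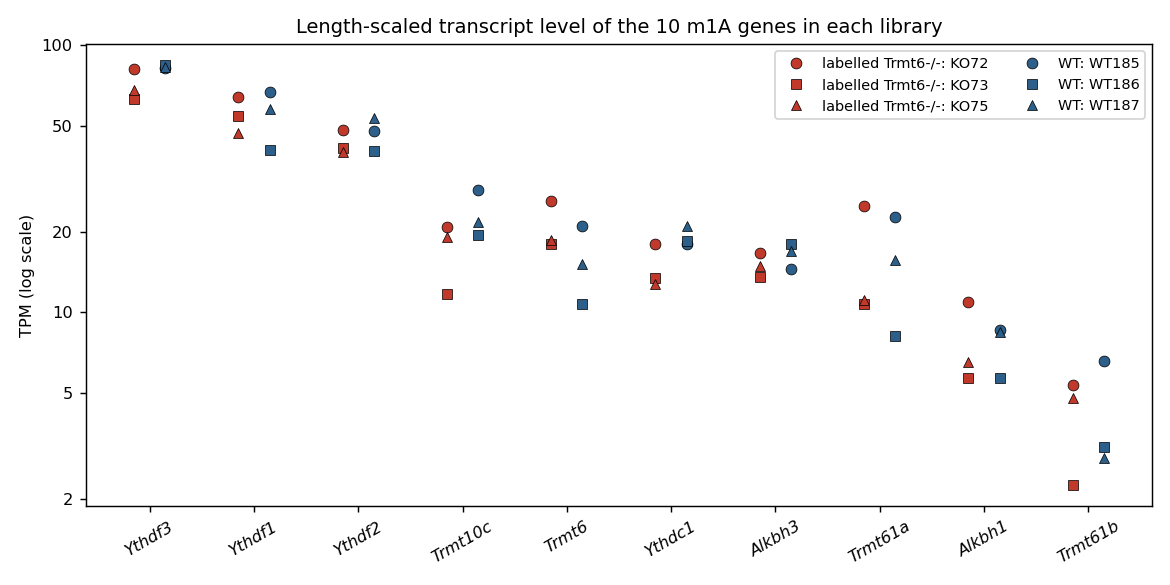
TPM of the 10 m1A genes in each library on a log axis, in order of the mean over 6 libraries, with libraries labelled Trmt6-/- left of WT for each gene and a symbol per library. The cytoplasmic YTH genes stand apart at 39.8 TPM or more, the next 5 genes overlap, and Alkbh1 and Trmt61b are lowest.

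Of the summed TPM of the 3 cytoplasmic YTHDF genes, Ythdf3 made up 41.9% ± 2.15 in the libraries labelled Trmt6-/- and 45.3% ± 5.18 in WT (SD, n = 3 each). Ythdf1 made up 32.6% ± 2.04 and 29.4% ± 4.71, and Ythdf2 made up 25.6% ± 0.577 and 25.4% ± 1.82, in the same order of groups. WT186 was the library farthest from the others, with 51.2% Ythdf3 and 24.5% Ythdf1. The proportions differed by less than the spread between WT libraries.

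Variation between libraries of a group also set the genes apart. The coefficient of variation of CPM in the libraries labelled Trmt6-/- and in WT was 37.3% and 40.4% for Trmt61a, and 36.1% and 43.4% for Trmt61b. For the 3 YTHDF genes it was 2.99% to 6.37% among the libraries labelled Trmt6-/-, and 8.46% to 16.3% among WT. Trmt6 varied by 7.86% in the libraries labelled Trmt6-/- and by 25.5% in WT. KO73 was the lowest library of its group for 6 of the 10 genes, against 26.9% of all genes, and WT185 was the highest of its group for 5 of the 10, against 37.3% of all genes.

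Genes that work with these enzymes were examined as 6 lists, from which DESeq2 and limma-voom put 0 genes past the adjusted threshold. Over the whole table DESeq2 put 627 genes past it and limma-voom 0. Values in parentheses are log2 fold changes ± SE, labelled Trmt6-/- over WT. Over all genes tested, 12.1% had an unadjusted p below 0.05 by edgeR and 18.7% had groups without overlap. Genes described from each list were mostly those with its smallest p, so groups without overlap among them follow partly from that choice. Of 7 other m1A-linked enzymes and partners tested, 0 passed the adjusted threshold of edgeR in either direction and 1 had an unadjusted p below 0.05 (median log2 fold change -0.04). The smallest unadjusted p was that of Alkbh7, a mitochondrial AlkB family gene, at 6.15 CPM in KO72, 7.26 in KO73 and 6.12 in KO75, against 11.9 CPM in WT185, 9.42 in WT186 and 8.45 in WT187 (-0.61 ± 0.25, unadjusted p = 0.0431 and adjusted p = 0.394 by edgeR). All 3 libraries labelled Trmt6-/- were below WT. Fto, which encodes an m6A demethylase also reported to act on m1A in tRNA, was measured at 29.6 ± 4.72 CPM in the libraries labelled Trmt6-/- and 36.9 ± 5.74 CPM in WT (edgeR adjusted p = 0.586).

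Of 7 further Trm10 and AlkB family genes, 0 passed, also at an unadjusted p below 0.05 (median 0.0042). Alkbh8, which encodes a methyltransferase of wobble uridines in tRNA, stood at 23.6 CPM in KO72, 26.3 in KO73 and 56.6 in KO75, and at 19.2 CPM in WT185, 22.9 in WT186 and 19.2 in WT187. The groups did not overlap, and KO75 was the highest by a wide margin (0.80 ± 0.35, edgeR adjusted p = 0.428). Alkbh5, the other m6A demethylase gene, was measured at 187 ± 19.4 CPM in the libraries labelled Trmt6-/- and 154 ± 7.07 CPM in WT (adjusted p = 0.533 by edgeR).

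The m6A methyltransferase complex makes the mark for which the YTH proteins are best known. Of its 8 genes 0 passed, also at an unadjusted p below 0.05, 7 had a log2 fold change below 0 and the median was -0.19, against 7604 of 14107 genes below 0 and a median of -0.03. Mettl3, the catalytic subunit, stood at 15.8 CPM in KO72, 10.2 in KO73 and 12.2 in KO75, against 21.0 CPM in WT185, 16.4 in WT186 and 16.8 in WT187. Its groups did not overlap (-0.51 ± 0.23, edgeR adjusted p = 0.459). Cbll1, which encodes a ubiquitin ligase associated with the complex, was measured at 13.4 ± 1.79 CPM in the libraries labelled Trmt6-/- and 16.7 ± 1.53 CPM in WT (adjusted p = 0.604 by edgeR).

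In yeast, initiator tRNA that lacks m1A is destroyed by the TRAMP complex and the nuclear exosome. Of 17 genes of this machinery and of the Xrn exonucleases, 16 were tested, 0 passed and 1 had an unadjusted p below 0.05 (8 above and 8 below 0, median -0.0043), and Exosc6 had no counts in any library. Zcchc7, a TRAMP subunit gene, stood at 64.2 CPM in KO72, 56.4 in KO73 and 62.0 in KO75, against 46.1 CPM in WT185, 51.8 in WT186 and 48.7 in WT187. Its groups did not overlap (0.32 ± 0.13, unadjusted p = 0.0416 and adjusted p = 0.389 by edgeR). Xrn2, a nuclear exonuclease gene, was measured at 103 ± 10.9 CPM in the libraries labelled Trmt6-/- and 86.9 ± 3.69 CPM in WT (edgeR adjusted p = 0.560).

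YTHDF2 acts through deadenylation and, for some transcripts, UPF1. Of the 13 genes of CCR4-NOT and YTHDF2 partners, 0 passed, 1 had an unadjusted p below 0.05 and 9 were below 0 (median -0.09). Cnot8, a catalytic deadenylase subunit, stood at 28.7 CPM in KO72, 30.9 in KO73 and 31.6 in KO75, against 37.0 CPM in WT185, 41.1 in WT186 and 40.3 in WT187. These ranges did not overlap (-0.38 ± 0.13, unadjusted p = 0.0241 and adjusted p = 0.331 by edgeR). Upf1, which encodes the helicase of nonsense-mediated decay, was measured at 129.7 ± 15.8 CPM in the libraries labelled Trmt6-/- and 158 ± 5.83 CPM in WT (edgeR adjusted p = 0.533).

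Myc and Ppard have been named elsewhere as transcripts whose product depends on TRMT6 and TRMT61A, in T cells and liver cancer. Myc stood at 63.2 CPM in KO72, 28.2 in KO73 and 21.9 in KO75, and at 46.8 CPM in WT185, 18.4 in WT186 and 32.7 in WT187, with overlap (0.21 ± 0.48, edgeR adjusted p = 0.915). Ppard, a nuclear receptor gene, stood at 129 CPM in KO72, 168 in KO73 and 164 in KO75, against 190 CPM in WT185, 205 in WT186 and 199 in WT187. Every library labelled Trmt6-/- was below every WT library (-0.37 ± 0.16, edgeR adjusted p = 0.432), and neither gene passed.

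**Figure D4:**
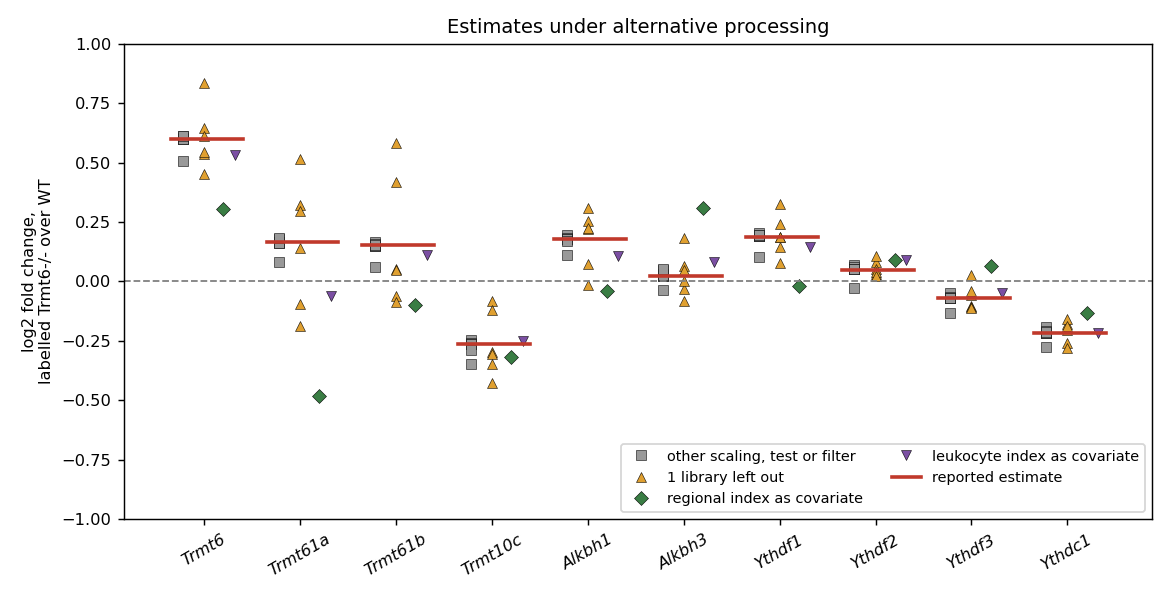
Log2 fold change (libraries labelled Trmt6-/- over WT) of each m1A gene in the reported fit (red line) and in 15 alternative fits (symbols by kind). Trmt6 stays between 0.31 and 0.84, Trmt10c and Ythdc1 stay below 0, and the other 7 genes lie on both sides of 0.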

How the data were processed

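The deposited values are raw read counts, made per gene by the authors with featureCounts 2.0.1 in paired mode on exons of GENCODE M23, per the file headers; no strand or multimapping option stands there. Per the submitters' processing notes, fastp and HISAT2 were used with the mm10 build. Per the labels, cDNA was amplified before library preparation. Counts from PCR without molecular identifiers are not independent molecules. Columns carry animal numbers, so a column name gave the group of a library but no replicate number. The deposited gene length column (unit: other, in bases) served for TPM, computed here.

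Gene symbols were taken from GENCODE M21 (same assembly); 55154 of 55335 identifiers matched. Genes passing filterByExpr were scaled by TMM and tested two-sided with edgeR 4.0.16 (R 4.3.3), with genotype as the only term and a Benjamini-Hochberg threshold of 0.05 over 14107 genes. SD is over 3 libraries. SE is the log2 fold change divided by the square root of F, and intervals are 95%. The biological coefficient of variation was 0.345. The script was tested on simulated data. Alternatives were RLE, upper-quartile and library-total scaling, DESeq2 1.42.0, limma-voom 3.58.1, other filters, each library left out, and a regional or a leukocyte index as covariate (mean log2 CPM, prior count 2). The members and lists were chosen with earlier results of these data known. All 10 members are named. From each other list the rule named those past the threshold or, failing that, the 2 genes with the smallest p, and for Trmt6 the 3 nearest profiles and the tested gene on each side; Hsd17b10 and Exosc6 were named after their values were seen.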

Additional observations from a re-analysis of the deposited data

How the results depend on the processing

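None of the 10 m1A genes passed in any of the 15 alternative fits, and the Trmt6, Trmt10c and Ythdc1 estimates kept their sign in all of them. Signs turned for other members, none of them past the threshold. With the regional index as covariate the log2 fold change was -0.48 for Trmt61a, -0.10 for Trmt61b, -0.041 for Alkbh1, -0.017 for Ythdf1 and 0.065 for Ythdf3, and with the leukocyte index it was -0.062 for Trmt61a. With library totals, which lower the median of all genes to -0.105, it was -0.034 for Alkbh3 and -0.026 for Ythdf2. With 1 library left out the range was -0.19 to 0.51 for Trmt61a, -0.086 to 0.59 for Trmt61b, -0.014 to 0.31 for Alkbh1, -0.083 to 0.18 for Alkbh3, 0.078 to 0.32 for Ythdf1, 0.023 to 0.11 for Ythdf2, -0.11 to 0.029 for Ythdf3, -0.43 to -0.084 for Trmt10c and -0.28 to -0.16 for Ythdc1; for Trmt6 it was 0.45 to 0.84, and for the log2 ratio of Trmt6 to Trmt61a 0.32 to 0.67. The number of genes past the threshold over the whole table, 6 in the reported fit, was 0 with library totals, with limma-voom or with the regional index, 159 without a low-count filter, 627 with DESeq2 and 0 to 6 with 1 library left out. The cause was not tested. No paired analysis was possible because the columns carry animal numbers and no replicate numbers. Trmt61b, with 33 to 100 counts per library, had the fewest counts of the 10.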
